A study of Homo sapiens with 2 samples.

Results

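Genes of the epithelial tight junction, 10 in number, were followed across carboplatin resistant and dual resistant ovarian carcinoma cells, namely the claudins CLDN1, CLDN3, CLDN4, CLDN6, CLDN7, CLDN10, CLDN11 and CLDN12, together with occludin (OCLN) and the scaffold gene TJP1. They were chosen by gene symbol alone, and every probe carrying one of these symbols was used, which gave 18 of the 41000 probes and 10 of the 30238 gene names on each array. A2780 cells are an established human line of ovarian carcinoma. A2780CBN is a derivative for which the labels give 22.2 µM carboplatin, a drug that cross-links DNA. A2780CBNDXL is a derivative resistant to carboplatin together with docetaxel, a drug that stabilizes microtubules, and its label gives 8.02 µM for the combination. The study's text gives that concentration as the IC50 of carboplatin in the combination, not as the dose reached in selection. RNA of each line was hybridized in one dye against RNA of co-cultured control A2780 cells, which are cells of the parental line kept in culture alongside it, in the other dye. Each line was represented by 1 pool of RNA from 3 isolations. That pool was measured on 4 arrays over 2 slides, and each slide carried 1 array of either labelling direction. The SD given below is over those 4 arrays and covers labelling and hybridization error only, so no test across independent cultures was possible and none was run. The A2780DXL arrays were not analysed here.

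Tight junctions seal the space between neighbouring epithelial cells near their apical side. Claudins and occludin are membrane proteins that span the membrane and form the strands of the junction, while TJP1 (also called ZO-1) lies under the membrane and ties them to the actin cytoskeleton. Claudins differ between tissues, and some of them, such as CLDN3 and CLDN4, are known for high levels in ovarian carcinoma.

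A probe is a sequence of 60 bases fixed to the array, and 5 probes carried the differences described below. They are shown 5′ to 3′ as the files give them, in lower case with no base marked, so that a reader can see which stretch of each transcript was measured. The OCLN probe A_24_P102053 and the CLDN7 probe are shown whole, and of the other 3 only the first 30 bases are given. Positions are those of the files on NCBI36.

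OCLN A_24_P102053: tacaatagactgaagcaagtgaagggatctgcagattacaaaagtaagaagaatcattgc
OCLN A_23_P92672, first 30 bases: tgtttgagaaattaagtatctgacatctct
OCLN A_24_P686247, first 30 bases: tcaagcagcttcctagtctagaaagtcaga
CLDN7 A_23_P164284: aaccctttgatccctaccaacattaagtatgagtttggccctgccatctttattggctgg
CLDN6 A_23_P37942, first 30 bases: gtggcagtgcccaacagctttgggatgggt

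The OCLN probe A_24_P102053 covers chr5:68883142-68885185, a span of 2044 bases for 60 bases of probe, so it crosses at least 1 intron. The other OCLN probes lie downstream at chr5:68885271-68885330 and chr5:68887617-68887676, all on the plus strand. The CLDN7 probe covers chr17:7104546-7104710 on the minus strand, a span of 165 bases, and so crosses an intron too. The CLDN6 probe lies at chr16:3005256-3005315 on the minus strand. The A_24_P686247 probe was designed on an Ensembl transcript and the others on RefSeq transcripts, so all 5 are exonic by design, and their place relative to the coding sequence was not annotated here. RefSeq lists a pseudogene copy, OCLNP1, on the same chromosome as OCLN, and signal that the probes might share with it cannot be told apart from that of OCLN.

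On the 8 arrays a channel passed the software's limit of being well above background at 59.8 to 67.5% of its spots, and no spot was saturated. The coefficient of variation of the spike-in controls was 3.56 to 4.87%, with array 1 of A2780CBNDXL apart at 19.6% (green) and 20.0% (red). The epithelial keratins KRT8 and KRT18 and the mesenchymal genes VIM, ZEB1 and TWIST1 were well above background in both RNAs on all arrays. CDH1 (E-cadherin), KRT7 and GRHL2 were not on any array. The epithelial genes KRT19 and ESRP1 and the mesenchymal gene ZEB2 passed that limit on part of the arrays. EPCAM passed it throughout except in the control of A2780CBNDXL, at 3 of 4 arrays. The mesenchymal gene FN1 passed it in the RNA of A2780CBN alone. Of the ovarian lineage markers, PAX8 was measured on all arrays and WT1, MUC16 and MSLN on none. Of 5 markers of other cells, the leukocyte gene PTPRC and the endothelial gene PECAM1 were below that limit on all arrays, VWF passed it in 1 or 2 arrays of each RNA, and CD14 and COL1A1 passed it on all arrays.

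A gene was read from its probe with the highest mean signal. It was counted as changed in a line when its mean log2 ratio of line over control was at least 1 in size, had the same sign on all 4 arrays, and 1 of the channels stayed well above background throughout those arrays. By this rule 7 of the 10 genes could be tested in each line. CLDN1, CLDN4 and CLDN10 were not well above background in either RNA on any array of either line, with every probe. CLDN1 and CLDN4 form sealing strands and CLDN10 forms ion channels, and their processed intensity stayed between 4.45 and 18.9 units in all channels.

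In A2780CBN none of the 7 tested genes changed, where 12.6% of 17951 genes did. In A2780CBNDXL 3 of the 7 changed, where 16.9% of 17116 genes did. CLDN6 and CLDN7 were higher, as were 7.70% of all genes tested, and OCLN was lower, as were 9.20%. The median log2 ratio of the 7 genes was -0.32 in A2780CBN and -0.20 in A2780CBNDXL, beside -0.06 and 0.04 over all genes tested. The ratios of the lines differed by at least 1 on the log2 scale, with no overlap between the 4 arrays of one line and the 4 of the other, for CLDN6, CLDN7 and OCLN, where 18.3% of 17627 genes did. The plot of log2 ratios by probe gives every value.

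**Figure D1:**
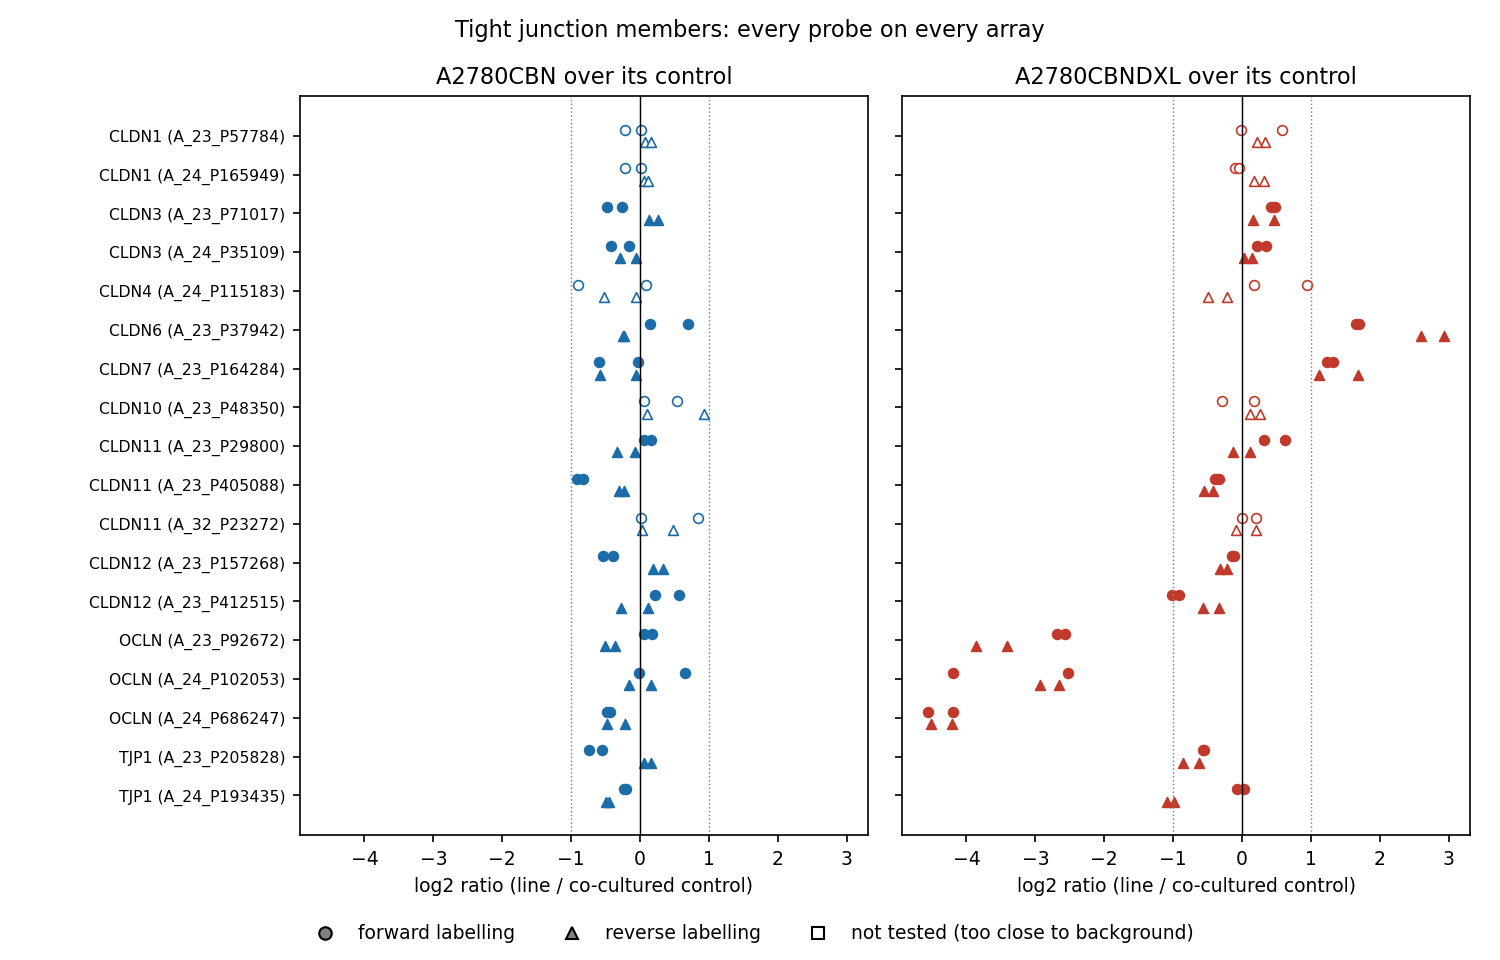
Log2 ratio of line over co-cultured control (horizontal axis) for each of the 18 probes, with 1 point per array, circles for forward and triangles for reverse labelling, open symbols for probes that could not be tested and dotted lines at -1 and 1. In A2780CBNDXL the 3 OCLN probes lie between -4.56 and -2.53 and the CLDN6 and CLDN7 probes between 1.12 and 2.94, while in A2780CBN no tested probe leaves the range from -0.91 to 0.71.

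Occludin was the member with the largest change. In A2780CBNDXL its brightest probe, A_24_P686247, gave a processed intensity of 26.0, 33.0, 33.3 and 35.1 in the line and of 614, 755, 609 and 650 in the control on arrays 1 to 4. The line lay far under the control on every array, and it was well above background on arrays 3 and 4 only. The log2 ratio was -4.56, -4.51, -4.19 and -4.21, with a mean of -4.37 ± 0.19 (SD, n = 4 arrays). Only the last 2 of these values rest on a line signal that was well above background, so the mean is not a measured size of the change. The other 2 probes gave the same direction on all arrays, with log2 ratios of -2.68, -3.41, -2.56 and -3.86 for A_23_P92672 (mean -3.13 ± 0.61) and of -2.53, -2.93, -4.20 and -2.66 for A_24_P102053 (mean -3.08 ± 0.76). For A_23_P92672 the line was well above background on arrays 2 and 3 only, so its mean is not a measured size either. For A_24_P102053 no array had the line well above background. Its control was therefore at least 5.28-fold higher by a bound taken after scaling between arrays. For it the line was set to the dimmest signal of any probe that still counted as well above background on that array. Where the line's own signal was brighter, that was used. Brighter spots can fail the limit, as did the CLDN7 control at 74.5 units on array 1 of A2780CBNDXL. This bound and those given below are thus approximate.

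In A2780CBN OCLN stayed close to its control. The brightest probe gave 182, 224, 172 and 167 in the line and 246, 259, 241 and 234 in the control, and the log2 ratio was -0.44, -0.21, -0.48 and -0.48 (mean -0.40 ± 0.13). The line was slightly under the control on all 4 arrays with this probe. The other probes did not hold one sign, with means of -0.16 ± 0.33 and 0.16 ± 0.35.

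The controls hybridized beside the lines were not alike for OCLN. On a log2 scale on which the channels of all arrays were brought to the same mean-intensity distribution (the Aquantile method), the control beside A2780CBNDXL was 1.37 ± 0.12 higher than the control beside A2780CBN in arrays of the same slide and labelling direction, with a range of 1.27 to 1.54. The other probes gave 1.06 and 1.38, with no overlap between the arrays. OCLN was the only one of the 7 tested genes to differ between the controls by at least 1 without overlap, where 4.45% of 16871 genes did. That count was 0 with normexp and loess or a 3-fold limit, and CLDN6 joined OCLN with background-subtracted signals, on slide 2 alone, on the forward labelled arrays alone, without array 1 of A2780CBN and without array 2 of A2780CBNDXL. From low to high, the scaled level of the brightest probe was 4.97 ± 0.09 in A2780CBNDXL, 7.56 ± 0.17 in A2780CBN, 7.96 ± 0.04 in the control of A2780CBN and 9.34 ± 0.11 in the control of A2780CBNDXL, and no neighbours in this order overlapped. With the other 2 probes A2780CBN and its own control overlapped, and A2780CBNDXL stayed lowest. A2780CBNDXL lay 3.00 under the control of A2780CBN, and A2780CBN lay 1.78 under the control of A2780CBNDXL. Compared directly, A2780CBNDXL was 2.59 ± 0.24 lower than A2780CBN with the brightest probe, while the ratios differed by -3.97. The other probes gave -1.91 and -1.86 for the direct comparison. With each probe A2780CBNDXL was well above background on 2 of 4 arrays at most, so the distances that involve that line itself are not measured sizes.

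**Figure D2:**
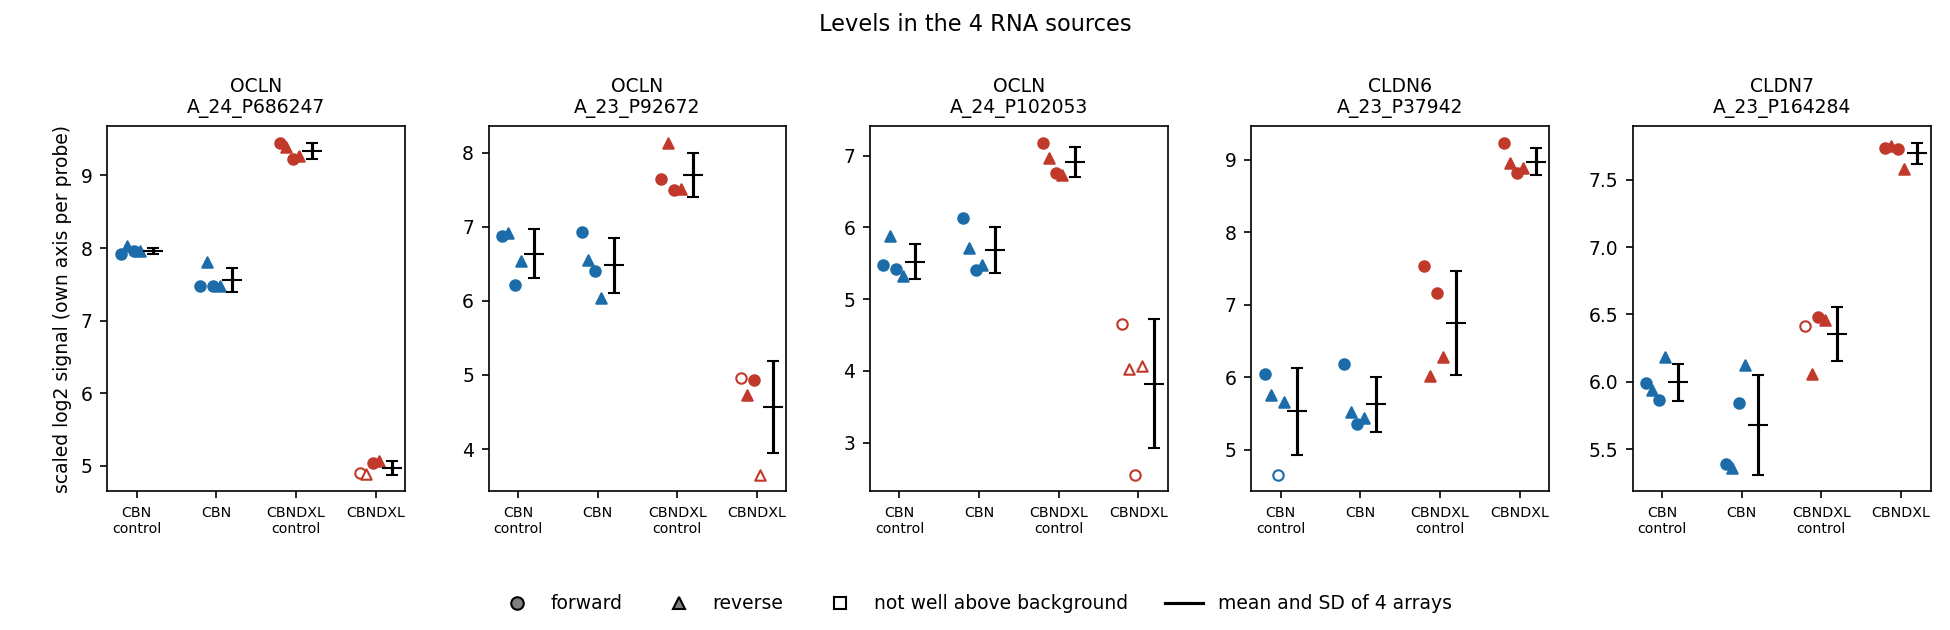
Scaled log2 signal of the 3 OCLN probes and the CLDN6 and CLDN7 probes in the 4 RNA sources, 1 point per array (circles forward, triangles reverse, open where not well above background), with the mean and SD of 4 arrays beside them and an axis of its own for each probe. OCLN is lowest and CLDN6 and CLDN7 are highest in A2780CBNDXL, and the control beside that line is the highest source of OCLN.

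CLDN6, a claudin known from embryonic epithelia and from some ovarian tumours, was higher in A2780CBNDXL. The line gave a processed intensity of 530, 562, 459 and 502 on arrays 1 to 4, and the control 164, 73.4, 146 and 82.6. The line was above the control on every array, and the control was brighter on the forward labelled arrays 1 and 3 than on the reverse labelled arrays. The log2 ratio was 1.70, 2.94, 1.66 and 2.60, with a mean of 2.22 ± 0.65 or 4.67-fold. In A2780CBN the line gave 72.1, 45.6, 40.7 and 42.1 and the control 65.3, 53.8, 24.9 and 49.3, with ratios of 0.14, -0.24, 0.71 and -0.23 (mean 0.10 ± 0.44). These did not hold one sign.

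On the scaled level, CLDN6 was 5.53 ± 0.60 in the control of A2780CBN, 5.62 ± 0.38 in A2780CBN, 6.75 ± 0.72 in the control of A2780CBNDXL and 8.97 ± 0.18 in A2780CBNDXL. Only the last source did not overlap with its neighbour in this order. The control of A2780CBNDXL was 1.22 ± 1.01 higher than that of A2780CBN over matched arrays, with a range of 0.25 to 2.51 and with overlap, so this difference did not pass the rule. Compared directly, A2780CBNDXL was 3.35 ± 0.20 higher than A2780CBN, with a range of 3.06 to 3.46.

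CLDN7, a sealing claudin of many simple epithelia, was also higher in A2780CBNDXL. The line gave 186, 241, 215 and 200 and the control 74.5, 74.7, 90.9 and 92.2, of which the first was not well above background. The line was above the control on all arrays, with log2 ratios of 1.32, 1.69, 1.24 and 1.12 (mean 1.34 ± 0.25, 2.54-fold). In A2780CBN the line gave 41.5, 40.7, 57.0 and 67.4 and the control 62.9, 61.0, 57.9 and 70.2, with ratios of -0.60, -0.58, -0.02 and -0.06 (mean -0.32 ± 0.32). The line was thus under its control on slide 1 and nearly level with it on slide 2. The scaled level was 5.68 ± 0.37 in A2780CBN, 6.0 ± 0.14 in its control, 6.35 ± 0.20 in the control of A2780CBNDXL and 7.70 ± 0.08 in A2780CBNDXL. As for CLDN6, only A2780CBNDXL did not overlap with its neighbour. A2780CBNDXL was 2.01 ± 0.44 higher than A2780CBN.

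The size of these changes depended on the processing. In 1 alternative, normexp background correction, which adds an offset of 50 to every signal, and loess normalization were changed together. The mean log2 ratio in A2780CBNDXL was then -1.59 for OCLN, 0.997 for CLDN6 and 0.35 for CLDN7. OCLN alone passed the rule, and CLDN6 missed it narrowly. CLDN6 and CLDN7 fell short of it there with the same direction, and their dim channels lay between 73.4 and 164 units. With background-subtracted signals centred on the median of each array the means were -4.39 for OCLN, 2.17 for CLDN6 and 1.26 for CLDN7.

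The other 4 tested genes stayed within 2-fold in both lines. CLDN3, which binds the bacterial enterotoxin of Clostridium perfringens, gave a mean log2 ratio of -0.23 ± 0.15 against 0.18 ± 0.14 (A2780CBN against A2780CBNDXL) with its brightest probe, at chr7:72821914-72821973. All 4 arrays of the first line were below 0 and all 4 of the second above it, from -0.41 to -0.06 and from 0.02 to 0.35. The other CLDN3 probe gave -0.09 ± 0.35 and 0.38 ± 0.15. CLDN11, the claudin of myelin and of Sertoli cell junctions, stayed under its control in both lines without reaching 2-fold, with -0.57 ± 0.35 in A2780CBN and -0.42 ± 0.09 in A2780CBNDXL.

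A further CLDN11 probe gave -0.04 ± 0.21 and 0.23 ± 0.32, and the A_32_P23272 probe, which lies on the opposite strand, was well above background on 1 array only. CLDN12, a claudin that lacks the PDZ-binding end of most of the family, had -0.10 ± 0.43 in A2780CBN and -0.20 ± 0.09 in A2780CBNDXL. Its second and dimmer probe gave 0.16 ± 0.35 and -0.70 ± 0.31. In A2780CBNDXL the arrays of the probes nearly touched, from -0.32 to -0.11 with the brightest and from -1.01 to -0.33 with the second. CLDN12 lies at chr7:89880414-89882936 by its probes, in the chromosome region of the drug efflux gene ABCB1, and did not pass the rule in either line.

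With its brightest probe TJP1 averaged -0.34 ± 0.15 on the log2 scale in A2780CBN and -0.53 ± 0.59 in A2780CBNDXL. In A2780CBNDXL the 2 labelling directions parted, with 0.03 and -0.07 on the forward and -1.09 and -0.98 on the reverse labelled arrays. On the reverse labelled arrays alone TJP1 would have passed the 2-fold rule. Its other probe was below 0 on all 4 arrays of A2780CBNDXL (mean -0.65 ± 0.14) and of both signs in A2780CBN (mean -0.27 ± 0.45).

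Beyond these members, 50 of 51 other tight junction genes from a list of claudins, junctional adhesion molecules, scaffolds and polarity proteins were on the array. In A2780CBN 40 could be tested, and 8 changed, 7 of them higher and 1 lower, where 12.6% of all genes tested changed. The 7 include CLDN23 and MAGI2, whose controls there were never well above background. In A2780CBNDXL 36 could be tested, and 8 changed, 1 of them higher and 7 lower, where 16.9% of all genes tested changed. Over all genes tested in A2780CBNDXL 7.70% were higher and 9.20% lower. Shares by direction were not computed for A2780CBN. The median log2 ratio of the tested genes was 0.12 in A2780CBN and -0.10 in A2780CBNDXL. The plot of both lines sets these genes beside the members.

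**Figure D3:**
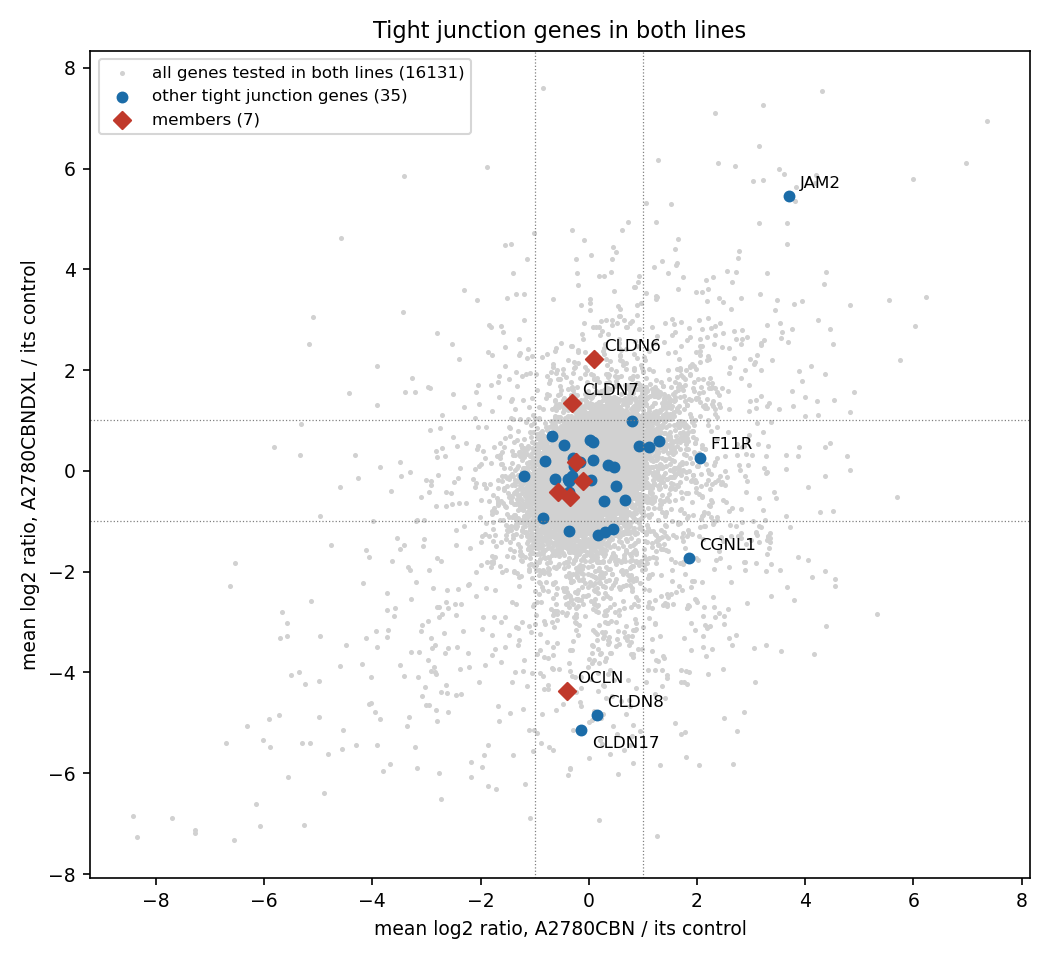
Mean log2 ratio over 4 arrays in A2780CBN (horizontal) and A2780CBNDXL (vertical) for the 16131 genes tested in both lines (grey), 35 other tight junction genes (blue) and 7 members (red diamonds), with dotted lines at -1 and 1. OCLN, CLDN8 and CLDN17 lie near 0 in A2780CBN and under -4 in A2780CBNDXL, and JAM2 is high in both.

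Among the claudins of that list, CLDN8 and CLDN17 were lower in A2780CBNDXL. The CLDN17 probe gave a mean processed intensity of 21.5 in the line and 749 in the control, and on no array was the line well above background. Its log2 ratios were -5.12, -5.35, -4.74 and -5.33, and the control was at least 30.4-fold higher. CLDN8, a claudin of the distal kidney tubule, had -5.69, -5.63, -2.46 and -5.60, with a line signal well above background on array 3 only. In A2780CBN both stayed near their control, with 0.15 ± 0.12 for CLDN8 and -0.13 ± 0.12 for CLDN17, and the controls of the lines differed by 0.12 and 0.28 on the scaled level. The genes are close neighbours on chromosome 21, with probes at 30508837 for CLDN8 and 30460140 for CLDN17. CLDN9, the neighbour of CLDN6 on chromosome 16, gave 0.19 ± 0.11 in A2780CBNDXL, under the limit that CLDN6 passed. CLDN23 passed the rule as higher in A2780CBN with a mean log2 ratio of 2.79, but its control was never well above background. The bound was at least 1.87-fold, so a change of 2-fold was not established. CLDN23 could not be tested in A2780CBNDXL, where the line was well above background on 3 of 4 arrays. Its log2 ratios there were 1.55, 2.38, 2.66 and 2.54, with a mean of 2.28 ± 0.50.

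Of the junctional adhesion molecules, JAM2 was higher in both lines. Its log2 ratio was 3.71 ± 0.17 in A2780CBN and 5.45 ± 0.25 in A2780CBNDXL. A second probe, with its control never well above background, was at least 7.57-fold higher in the first line and at least 52.9-fold higher in the other. F11R (JAM-A) was higher in A2780CBN, with 2.05 ± 0.78, and gave 0.26 ± 0.15 in A2780CBNDXL, while its controls differed by 1.11 on the scaled level. CXADR was lower in A2780CBN, with -1.19 ± 0.23, while its other tested probe fell short of 2-fold there at -0.96 ± 0.62. In A2780CBNDXL the CXADR probes did not go together, at -0.10 and 1.25 for the 2 that were tested.

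Of the scaffold and polarity genes, CGNL1 (paracingulin) passed the rule in opposite directions, at 1.85 ± 0.57 in A2780CBN and -1.73 ± 0.44 in A2780CBNDXL. For MAGI2 in A2780CBN the control was never well above background, and the log2 ratios were 1.68, 0.13, 2.04 and 1.26. The bound on its mean was at least 2.05-fold, which array 2 alone did not reach. TJP3 (1.30 ± 0.38), MAGI2 and INADL, now PATJ, (1.11 ± 0.24) passed the rule as higher in A2780CBN, and for INADL the controls differed by 1.12. In A2780CBNDXL TJP3 (0.58 ± 0.35) and INADL (0.48 ± 0.40) did not pass it, and MAGI2 could not be tested, with 1 of 4 arrays well above background in each channel. CGN (cingulin, -1.18 ± 0.17), MAGI3 (-1.21 ± 0.09), AMOT (angiomotin, -1.16 ± 0.17) and LSR (-1.28 ± 0.27), the angulin of tricellular contacts, passed it as lower in A2780CBNDXL and not in A2780CBN. The second probes of CGN (-0.89 ± 0.47) and MAGI3 (-0.93 ± 0.22) were below 0 on all arrays of A2780CBNDXL but did not reach 2-fold. The ratios of CGNL1, MAGI3, AMOT and LSR differed between the lines by the same rule as for the members, and those of CGN, TJP3 and INADL did not pass it.

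**Figure D4:**
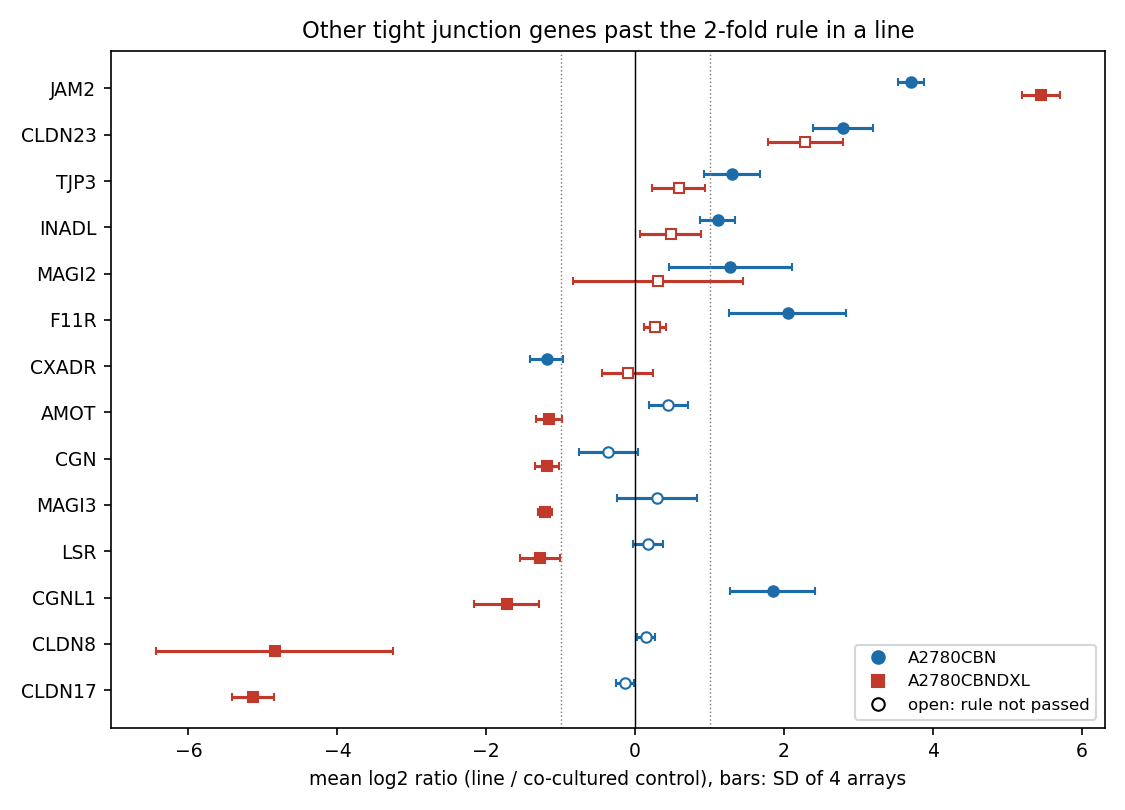
Mean log2 ratio and SD over 4 arrays of the 14 other tight junction genes that passed the 2-fold rule in a line, circles for A2780CBN and squares for A2780CBNDXL, open where the rule was not passed or could not be applied. CGNL1 lies on opposite sides of 0 in the lines, and CLDN8 and CLDN17 lie lowest in A2780CBNDXL.

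Some genes that mark epithelial and mesenchymal cells passed the rule too, and their part in these results was not tested. EPCAM, the adhesion molecule that binds CLDN7 in epithelia, was higher in both lines (2.07 ± 0.30 in A2780CBN and 1.67 ± 0.24 in A2780CBNDXL), so it was raised also where CLDN7 was not. Of the 9 epithelial markers, 8 were on the array. In A2780CBN 2 of 4 tested were higher, where 12.6% of all genes tested changed. In A2780CBNDXL 1 of 3 was higher, where 16.9% changed. SNAI1 (Snail), a repressor of epithelial genes, was lower in A2780CBNDXL with -2.45 ± 0.17, and gave -0.61 ± 0.19 in A2780CBN. ZEB2 was lower in A2780CBN (at least 2.54-fold), FN1 was higher there (at least 8.75-fold), and VIM was higher with 1.08 ± 0.67. Of the 8 mesenchymal markers, 2 of 7 tested were thus higher and 1 lower in A2780CBN, and 1 of 6 was lower in A2780CBNDXL. Beside the same shares over all genes, both lists are too short for these counts to be read as a result about the markers. The mesenchymal gene CDH2 (N-cadherin) could not be tested in A2780CBNDXL, because 1 array gave no value, and its log2 ratios on the others were 1.45, 1.40 and 1.90. Of the 2 markers of other cells that were tested, CD14 passed the rule in neither line, and COL1A1, a collagen of fibroblasts, was higher in A2780CBNDXL (2.04 ± 0.20) beside 0.99 ± 0.08 in A2780CBN.

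The genes whose 8 log2 ratios were most like those of OCLN, by the root mean square difference over 16131 genes, were an unnamed transcript under the probe A_23_P57836 (0.27), PLCH1 (0.27) and SOCS3 (0.30). In A2780CBN they averaged -0.25, -0.30 and -0.32, and in A2780CBNDXL -4.08, -4.07 and -4.35. Those most like CLDN6 were an unnamed transcript under A_24_P92823 (0.31), AK074141 (0.35) and PHYHD1 (0.36), with means of -0.19, 0.35 and 0.06 in A2780CBN and 2.36, 1.92 and 2.14 in A2780CBNDXL. The likeness was looked for over the same arrays, so it is a description only.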

How the data were processed

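Expression was measured on 2-colour Agilent whole human genome arrays, 4 each of A2780CBN and A2780CBNDXL. The authors deposited the output of Agilent Feature Extraction (slide 1 with version 10.7.1.1, the other slide with 10.7.3.1), and the processed intensity of each channel, which that software had background-subtracted and normalized for dye, was used. The deposited raw and background-subtracted intensity served alternatives only. The labels conflict on the dyes of the reverse labelled arrays: their dye entries repeat the forward ones, but both name and methods give opposite dyes. Their ratios were inverted to follow the name, and then forward and reverse log2 ratios correlated at 0.58 to 0.74 within a line. All signs thus depend on the labels of the forward arrays. Outlier spots were left out, spots of a probe were averaged, and log2 ratios were averaged within and then over labelling directions. A missing value on an array left a gene untested, as for CSDA in A2780CBN. Levels and bounds used Aquantile scaling in limma. Genes and lists were chosen with earlier results of these data known. The named genes were all members, the listed tight junction genes past the rule in a line, and 3 genes most like each of the 2 members with the largest ratios. With 1 sample per line there was no test between samples, and the number of arrays limits the precision. The methods' ANOVA and limma on arrays were alternatives. The 2-fold rule, the rule for differing ratios, limma and the ANOVA were first tested on simulated log2 ratios with 200 changed genes per line. The reading of the arrays, the scaling, the bounds, the comparison of the controls and the likeness were not simulated. Python (3.11.15) with pandas (2.3.3), numpy (2.4.6), matplotlib (3.10.9) and scipy (1.17.1) was used, and limma (3.58.1) was run in R (4.3.3).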

Additional observations from a re-analysis of the deposited data

Results flagged for a closer look

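The members and the other tight junction genes past the 2-fold rule in a line were searched for opposite directions. In 5 genes all 4 arrays of A2780CBN went one way and all 4 arrays of A2780CBNDXL the opposite way against the control. The share over all genes was not computed, so this count is not a result about tight junction genes. The difference of the mean log2 ratios, A2780CBNDXL minus A2780CBN, was 0.42 for CLDN3, 1.66 for CLDN7, -1.60 for AMOT, -3.58 for CGNL1 and -4.99 for CLDN8. Each line is 1 sample, so none of these differences was tested across cultures. For CLDN3 both means were under 2-fold, for CLDN7 2 of the A2780CBN ratios were -0.02 and -0.06, and for CLDN8 the lowest A2780CBN ratio rounded to 0.00. The size for CLDN8 is not well measured, since in A2780CBNDXL the line was well above background on 1 of 4 arrays only, which gave -2.46.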

How the results depend on the processing

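The counts of changed members were 0 in A2780CBN under every alternative run. In A2780CBNDXL they were 3 (CLDN6, CLDN7 and OCLN) under all alternatives, each slide alone included, apart from those named here. With normexp and loess 1 member (OCLN) was changed in A2780CBNDXL, 1 differed between the lines and 0 between the controls. With both channels well above background 1 member (CLDN6) was changed in A2780CBNDXL and 0 differed between the lines, because OCLN and CLDN7, and between the lines CLDN6, were then not tested. A 3-fold limit left 2 in A2780CBNDXL and 0 between the controls, and the reverse labelled arrays alone gave 4, with TJP1 added. Between the controls CLDN6 joined OCLN, making 2, with background-subtracted signals, on slide 2 alone, on the forward labelled arrays alone, and without array 1 of A2780CBN or array 2 of A2780CBNDXL. Leaving out each array in turn gave 0 to 0 members in A2780CBN, 3 to 3 in A2780CBNDXL, 3 to 3 between the lines and 1 to 2 between the controls. The methods' ANOVA and limma on the arrays gave the counts 0 and 3 too, with array error alone. Of 154 recomputed mean log2 ratios of tested members, 143 moved by less than the SD between arrays and 11 by more, and no changed member reversed. Most of the 154 are means over part of the same 4 arrays, which cannot move by the SD of those arrays. The 143 are therefore no measure of stability. With normexp and loess 5 moved and 9 did not, and the mean over all probes of a gene gave the same counts. With background-subtracted signals 1 moved and 13 did not. No paired analysis was possible because the labels number the arrays of 1 sample and not separate samples. Array 1 of A2780CBNDXL, with the widest spike-in spread, changed no call when left out. Signals close to background limit the size of the OCLN change.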
